A study of Mus musculus with 4 samples.

Results

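Macrophages take up modified lipoproteins in the artery wall and turn into lipid-laden foam cells, and their number and state are a central feature of early atherosclerosis. The 42 genes described here mark macrophages and other myeloid cells and were taken by name: general macrophage genes, inflammatory surface receptors, lipid-laden macrophage genes, genes of resident macrophages, Fc receptors with their signalling adaptors, subunits of the phagocyte oxidase, transcription factors and pan-leukocyte genes. They were chosen with earlier results of these data known. All 42 had at least 1 probe set that names a single gene, 67 probe sets in all, out of 18193 genes and 45101 probe sets on the array. Of the 42, 35 lay above the filter on low values, which is a mean intensity of 27.5, the median of all probe sets, and 11715 genes of the series did.

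Aortic RNA was measured on 4 Affymetrix arrays, 1 per group, after 2 weeks on diet. Ath29 Western and Ath29 chow are mice of the C57BL/6 strain labelled as congenic for Ath29, an atherosclerosis locus, and as resistant to the disease. B6 Western and B6 chow are C57BL/6 apoE-/- mice, which lack apolipoprotein E, clear lipoprotein remnants poorly and are labelled with atherosclerosis. The genotype label of the Ath29 mice does not mention apoE, so whether they share the deletion is not given. All mice were weaned onto chow at 3 weeks of age, and those on Western diet were moved to it at 4 weeks. Sex and the number of mice behind an array are not given in the labels. Groups have no replicates, so differences are given without tests or errors, and the number of arrays limits their precision. Each value is an intensity after the arrays were shifted to a common median, and each difference is on the log2 scale, so that 1 is 2-fold. In bulk RNA, more cells of a type and more RNA per cell cannot be told apart.

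Markers of vessel wall and of other tissues were read first. The smooth muscle actin Acta2 lay between 10395 and 11269 on the 4 arrays. The protocol label names liver where the source label names aorta. Of 7 hepatocyte markers with a probe set, 2 lay above the filter. Albumin, Alb, lay between 33.7 and 64.0, but Cyp2e1 between 2541 and 4852, while Apoa1, Ttr, Fgb, Tat and Apob lay below the filter. Heart muscle markers summed to 699 in Ath29 Western, 791 in Ath29 chow, 11255 in B6 Western and 1115 in B6 chow. Brown fat markers summed to 10494, 13547, 17838 and 8325 on the same arrays. The actin ratio of 3' to middle probe sets, a sign of RNA integrity, was 7.62, 10.2, 5.63 and 5.10 in that order, and that of 3' to 5' was 28.5, 31.5, 25.4 and 24.4. The Gapdh ratios did not share that order, with 10.6, 8.87, 9.54 and 9.23 to the middle probe sets, and to the 5' ones the lowest value in Ath29 chow, 22.8, and the highest in B6 chow, 31.3. The part of these in the members' differences was not tested.

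Defining macrophage genes were well above the filter on every array: Csf1r, the receptor for the growth factor that keeps macrophages alive, Ctss, an endosomal protease, the lysozymes, Laptm5 and Tyrobp. Adgre1, which encodes the F4/80 antigen, and Cd68, a lysosomal glycoprotein, were lower, between 38.0 and 89.9. The other 7 members lay below the filter: Aif1, Cd14, Csf2ra, Trem2, Fcgr1, Fcer1g and Ncf4. Cd14, the co-receptor for bacterial lipopolysaccharide, read at most 8.60, under the intensity floor of 9.60 on all arrays, and Trem2, a lipid-sensing receptor of foam cells, read at most 13.4. Aif1, a calcium-binding protein of macrophages, read between 8.16 and 21.3, and Csf2ra, a receptor chain for the growth factor GM-CSF, between 19.5 and 28.7. Their probe sets give no level to compare here, which says nothing about whether the genes were expressed. Fcgr1, the high-affinity receptor for IgG, read 28.7 in Ath29 Western, 15.7 in Ath29 chow, 39.6 in B6 Western and 11.6 in B6 chow, so only its Western arrays passed the filter value.

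**Figure D1:**
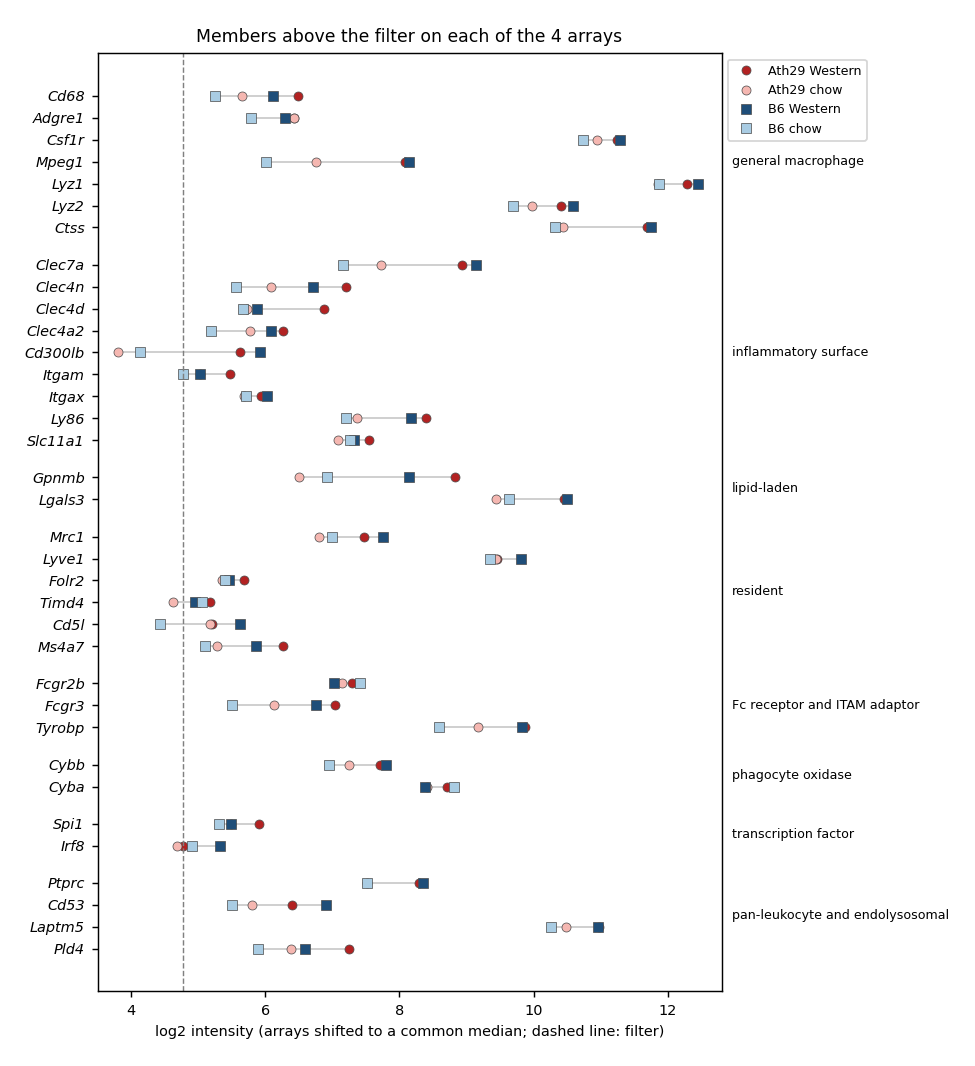
Each row is a member above the filter, grouped by role, and each point is 1 array on a log2 intensity axis; the dashed line is the filter. In 30 of the 35 rows both Western arrays, in dark colours, lie right of both chow arrays, in light colours.

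PU.1, encoded by Spi1, is a transcription factor of the ETS family that is required for macrophage development and binds purine-rich sequences with a GAGGAA core. The promoters of the 5 members that were at least 2-fold higher in both strains and have one in the RefSeq table used here are shown, from 250 bases before to 50 after the gene start, in build GRCm38.p6; Clec4n, at 2-fold in both strains too, has none there. Capitals mark GAGGAA or its reverse complement TTCCTC, the only motif searched, on both strands. Ctss lies at chr3:95526536-95526835, strand +. Clec7a lies at chr6:129472730-129473029, strand -. Mpeg1 lies at chr19:12460520-12460819, strand +. Gpnmb lies at chr6:49036268-49036567, strand +. Cd300lb lies at chr11:114934322-114934621, strand -.
Ctss: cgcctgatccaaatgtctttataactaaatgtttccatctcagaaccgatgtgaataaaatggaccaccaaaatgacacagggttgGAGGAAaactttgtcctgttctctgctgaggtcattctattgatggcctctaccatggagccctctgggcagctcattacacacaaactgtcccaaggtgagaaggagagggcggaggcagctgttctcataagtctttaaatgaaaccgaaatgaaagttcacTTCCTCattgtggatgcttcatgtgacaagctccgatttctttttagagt
Clec7a: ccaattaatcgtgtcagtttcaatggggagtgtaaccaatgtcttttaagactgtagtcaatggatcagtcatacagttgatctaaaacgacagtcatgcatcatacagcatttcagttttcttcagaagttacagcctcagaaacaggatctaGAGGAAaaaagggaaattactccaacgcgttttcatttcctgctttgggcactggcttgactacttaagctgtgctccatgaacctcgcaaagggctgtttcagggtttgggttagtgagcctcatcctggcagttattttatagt
Mpeg1: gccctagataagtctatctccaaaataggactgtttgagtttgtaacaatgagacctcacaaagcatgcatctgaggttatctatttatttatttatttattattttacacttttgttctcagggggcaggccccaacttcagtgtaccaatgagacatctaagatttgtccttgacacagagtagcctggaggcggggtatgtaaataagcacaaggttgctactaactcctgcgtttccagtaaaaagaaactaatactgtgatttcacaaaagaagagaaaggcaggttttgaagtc
Gpnmb: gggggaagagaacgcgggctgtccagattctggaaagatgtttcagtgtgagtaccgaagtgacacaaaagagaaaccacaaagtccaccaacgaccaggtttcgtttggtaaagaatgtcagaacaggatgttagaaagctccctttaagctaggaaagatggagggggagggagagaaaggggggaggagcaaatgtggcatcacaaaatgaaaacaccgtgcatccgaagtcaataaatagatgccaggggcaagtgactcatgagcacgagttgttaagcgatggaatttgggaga
Cd300lb: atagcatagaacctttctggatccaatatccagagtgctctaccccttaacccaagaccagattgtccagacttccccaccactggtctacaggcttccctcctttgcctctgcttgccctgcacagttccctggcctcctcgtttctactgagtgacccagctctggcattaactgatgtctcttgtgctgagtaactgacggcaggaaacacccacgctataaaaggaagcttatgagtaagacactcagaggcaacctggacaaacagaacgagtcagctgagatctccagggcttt

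Of these 5 promoters, 2 held the core: Ctss with 2 matches and Clec7a with 1. By plan, promoters of 1 chromosome in the table were not read. Over the members, 34 had a promoter among those read and 19 of them held the core, or 55.9%, against 31.3% of the 27025 genes read. The most matches, 3 each, were in Clec4d, Itgam and Mrc1. The share was not tested, a match is not a binding site, and a window without one says only that these letters are not in it. Spi1 itself read 59.7 in Ath29 Western, 44.8 in Ath29 chow, 45.1 in B6 Western and 39.6 in B6 chow, a diet difference of 0.42 and 0.19 in Ath29 and B6 mice. Irf8, a partner of PU.1 in monocyte development, read 27.3, 25.8, 40.2 and 29.9 on the same arrays, with both Ath29 values under the filter value of 27.5.

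The comparison of diets asks whether 2 weeks of Western diet go with more myeloid transcript in the aorta of each strain. On Western diet all 35 members were above their chow value in Ath29 mice and 32 in B6 mice, against 56.2% and 43.4% of all 11715 genes. The median difference was 0.55 in Ath29 and 0.76 in B6 mice, against 0.04 and -0.06 for all genes. At least 2-fold higher were 9 members in Ath29 mice, where 1.32% of all genes were, and 10 in B6 mice, where 4.11% were. The Ath29 count was 7 with quantile normalization or a common 75th percentile, where Ly86 and Lgals3 came just under 2-fold. At least 2-fold lower were 0 members in each strain, against 0.854% of all genes in Ath29 and 1.17% in B6 mice. The Ath29 and B6 diet differences use separate arrays: 6 members were at least 2-fold higher in both (17.1%, against 0.239% of all genes), and 32 were above 0 in both (91.4%, against 19.3%). Among the 6, Cd300lb passed the filter only through its Western arrays, and without it the counts were 8 in Ath29, 9 in B6 and 5 in both. In 30 members both Western arrays lay above both chow arrays, or 85.7%, against 12% of all genes. Because the members were chosen with earlier results of these data known, their shares are not independent of the values and describe this list only.

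**Figure D2:**
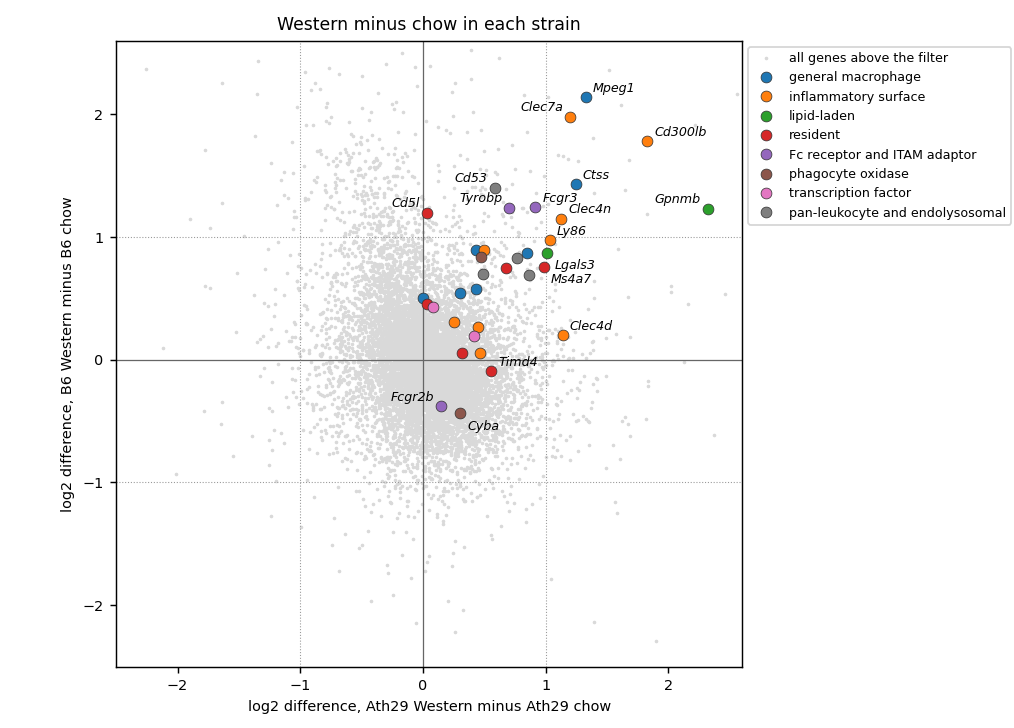
Each point is a gene, with its log2 difference of Western minus chow in Ath29 mice on the x axis and in B6 mice on the y axis; coloured points are the 35 members by role, grey points all genes above the filter, of which 31 lie outside the axes, and dotted lines mark 2-fold. The members sit in the upper right, except Timd4, Fcgr2b and Cyba, which lie below 0 in B6 mice.

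General macrophage genes differed in size. Mpeg1, a pore-forming protein of phagocytes, read 270.4 in Ath29 Western and 108 in Ath29 chow, and 284 in B6 Western and 64.3 in B6 chow. It was 2.51-fold higher on Western diet in Ath29 and 4.41-fold higher in B6 mice, the largest value of any member in B6 mice. Ctss read 3293 in Ath29 Western and 1390.2 in Ath29 chow, and 3454 in B6 Western and 1280.0 in B6 chow. Both strains thus had like levels of Ctss on each diet, with Western over chow at 2.37-fold and 2.70-fold. Cd68 read 89.9 and 50.1 in Ath29 Western and chow, and 69.4 and 38.0 in B6 Western and chow, a difference of 0.84 and 0.87.

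The remaining general macrophage genes above the filter were below 2-fold in both strains. Csf1r read 2422 in Ath29 Western and 1971 in Ath29 chow, and 2489 in B6 Western and 1705 in B6 chow, a difference of 0.30 and 0.55. The other Csf1r probe sets gave 0.46 and 0.67, and 0.22 and -0.13. Adgre1 read 86.2 in Ath29 Western and 86.1 in Ath29 chow, without any difference, and 78.1 in B6 Western and 55.0 in B6 chow, a difference of 0.51. The lysozyme Lyz2, which degrades bacterial cell walls, read 1354 and 1006 in Ath29 Western and chow, and 1532 and 825 in B6 Western and chow, a difference of 0.43 and 0.89. The probe set used for its neighbour Lyz1 read 5003 and 3701 in Ath29 Western and chow, and 5578 and 3736 in B6 Western and chow. It can bind several transcripts by its design, while a further Lyz1 probe set without that property read at most 9.82, so signal of the near-identical lysozyme genes cannot be told apart.

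Inflammatory surface receptors, the largest group, had the most members at 2-fold. Of 9 above the filter, 5 were at least 2-fold higher on Western diet in Ath29 mice and 3 in B6 mice. The shares of all genes were 1.32% and 4.11%. Medians of the 9 were 1.03 and 0.89. Clec7a, the beta-glucan receptor dectin-1, read 487 in Ath29 Western and 212 in Ath29 chow, and 564 in B6 Western and 143 in B6 chow, 2.30-fold and 3.94-fold higher on Western diet. Clec4n, the mannan receptor dectin-2, read 147 and 67.6 in Ath29 Western and chow, and 105 and 47.2 in B6 Western and chow, 2.18-fold and 2.22-fold higher. The Clec4n probe set used can bind several transcripts by its design, and its other one, below the filter, read at most 11.8. With both averaged, Clec4n came under 2-fold in both strains, at 0.56 and 0.72. Cd300lb, an activating receptor that couples to Tyrobp, read 49.5 and 14.0 in Ath29 Western and chow, and 60.3 and 17.6 in B6 Western and chow. Both chow values of Cd300lb lie under the filter value, so its differences of 1.83 and 1.78 are not exact.

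Ly86, the partner of the Toll-like protein RP105, read 337 and 165 in Ath29 Western and chow, and 289 and 147 in B6 Western and chow, a difference of 1.03 and 0.98, with 0.97 in Ath29 mice after quantile normalization. Clec4d, a receptor for mycobacterial glycolipid, stood out by strain: it read 117 in Ath29 Western and 53.1 in Ath29 chow, but 58.6 in B6 Western and 51.0 in B6 chow. Only the Ath29 Western array was high for Clec4d, whose only probe set can bind several transcripts by its design. Clec4a2, an inhibitory lectin, read 76.9 and 54.6 in Ath29 Western and chow, and 68.0 and 36.6 in B6 Western and chow, a difference of 0.49 and 0.89.

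The remaining inflammatory genes had small differences. Itgam, an integrin chain of monocytes and neutrophils, read 44.6 and 32.7 in Ath29 Western and chow, and 32.7 and 27.2 in B6 Western and chow. Itgax, an integrin chain shared with dendritic cells, read 61.5 and 51.6 in Ath29 Western and chow, and 65.1 and 52.5 in B6 Western and chow. The diet differences of both integrins lay between 0.25 and 0.45. Slc11a1, a metal transporter of the phagosome, read 187 and 136 in Ath29 Western and chow, and 160.2 and 154 in B6 Western and chow, so its B6 arrays were nearly level.

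Of the lipid-laden genes, Gpnmb, a lysosomal glycoprotein induced in lipid-loaded macrophages, read 456 in Ath29 Western and 91.2 in Ath29 chow, and 283 in B6 Western and 121 in B6 chow. It was higher on Western diet by 2.32 on the log2 scale in Ath29 mice, the largest diet difference of any member, and by 1.23 in B6 mice. A second Gpnmb probe set lay below the filter and read at most 19.2, and with both averaged the B6 value was 0.58. Lgals3, the galactose-binding protein galectin-3, read 1403 and 695 in Ath29 Western and chow, and 1449.7 and 792 in B6 Western and chow, 2.02-fold and 1.83-fold higher, the Ath29 value being 0.98 on the log2 scale with quantile normalization. Trem2 lay below the filter, so the type rests on 2 genes.

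Genes of resident macrophages had lower differences than these 2 types, with medians of 0.44 in Ath29 and 0.60 in B6 mice over 6 members. At least 2-fold higher were 0 and 1 of them, against 1.32% and 4.11% of all genes. Low medians were not particular to resident genes. General macrophage genes had 0.43 and 0.87, oxidase genes 0.38 and 0.20, and transcription factors 0.25 and 0.31. Mrc1, the mannose receptor, read 178 and 111 in Ath29 Western and chow, and 215 and 128 in B6 Western and chow, a difference of 0.67 and 0.75. Lyve1, a hyaluronan receptor that also marks lymphatic endothelium, read 705 and 691 in Ath29 Western and chow, and 901 and 656 in B6 Western and chow. Its levels in Ath29 mice were nearly the same on both diets, while a second probe set gave 0.29 in Ath29 and 0.99 in B6 mice. Ms4a7, a membrane protein of macrophages, read 77.2 and 39.1 in Ath29 Western and chow, and 58.2 and 34.4 in B6 Western and chow, the highest resident gene in Ath29 mice at 0.98.

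The remaining resident genes lay close to the filter. Folr2, a folate receptor, read 51.2 and 41.1 in Ath29 Western and chow, and 43.8 and 42.2 in B6 Western and chow. Timd4, a phosphatidylserine receptor for dying cells, read 36.3 and 24.8 in Ath29 Western and chow, and 31.1 and 33.1 in B6 Western and chow. Cd5l, a secreted protein that limits macrophage apoptosis, read 36.8 and 36.0 in Ath29 Western and chow, and 49.5 and 21.6 in B6 Western and chow, so its value of 1.20 in B6 mice rests on a chow value under the filter value.

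**Figure D3:**
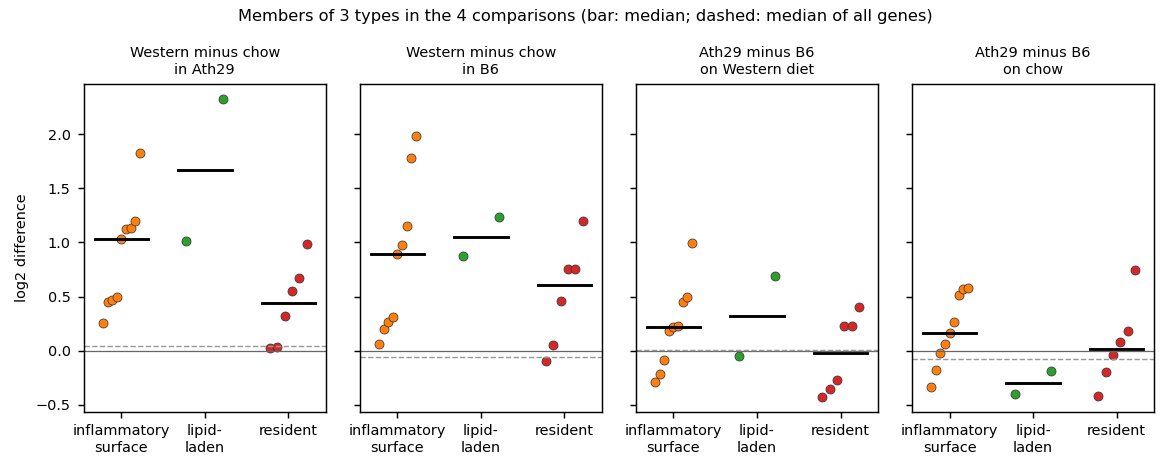
Points are members of the inflammatory surface, lipid-laden and resident types, bars their medians and dashed lines the median of all genes, with log2 differences on the y axis in each of the 4 comparisons. In the diet comparisons the resident medians of 0.44 and 0.60 are the lowest of the 3 types, an order that turns against the inflammatory type in B6 mice without the filter, and the lipid-laden medians of 1.67 and 1.05 rest on 2 genes each.

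The order of types in B6 mice depended on the processing. Without the filter the inflammatory median there was 0.31 and the resident median 0.60, and with probe sets averaged they were 0.52 and 0.72. In Ath29 mice the inflammatory median of 1.03 came near the resident median of 0.44 under some settings. It was 0.49 without the filter, and 0.49 without probe sets that bind several transcripts.

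Ptprc, which encodes the leukocyte antigen CD45, read 312 and 183 in Ath29 Western and chow, and 326 and 183 in B6 Western and chow, a difference of 0.77 and 0.83. Set against it, the difference of 10 of the other 34 members was larger in both strains, and that of 15 smaller. The shares of all genes above and below Ptprc were not counted, so these counts compare members only with each other. The medians of all genes were 0.04 in Ath29 and -0.06 in B6 mice. The 10 held 4 of the 9 inflammatory genes, Clec7a, Clec4n, Cd300lb and Ly86, both lipid-laden genes and 0 of the 6 resident genes. Cd300lb passed the filter only through its Western arrays, so its place among the 10 is not independent of the filter. Smaller than Ptprc in both strains were 4 of the 6 resident genes, Mrc1, Lyve1, Folr2 and Timd4, both transcription factors, 3 of the 9 inflammatory genes, Itgam, Itgax and Slc11a1, and 3 of the 7 general macrophage genes. Gpnmb exceeded Ptprc by 1.55 in Ath29 and 0.40 in B6 mice, and Mpeg1 by 0.56 and 1.31, while Lyve1 fell short of it with -0.74 and -0.37. Some margins were small: Lgals3 exceeded Ptprc by 0.24 and 0.04, and Mrc1 fell short with -0.096 and -0.079. With 1 array per group the difference between types was not tested.

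Among Fc receptors, which bind antibody-coated particles, Fcgr3 read 132 and 70.2 in Ath29 Western and chow, and 108 and 45.5 in B6 Western and chow, a difference of 0.91 and 1.24. Tyrobp, the adaptor DAP12, whose ITAM motif passes signals of many myeloid receptors to the kinase Syk, read 939 and 577 in Ath29 Western and chow, and 907 and 384 in B6 Western and chow, a difference of 0.70 and 1.24. Fcer1g, the other ITAM adaptor, lay below the filter at 7.03 to 29.6. The inhibitory receptor Fcgr2b read 156 and 141 in Ath29 Western and chow, and 131 and 170.2 in B6 Western and chow. Its difference depended on the probe set: the one used gave 0.15 and -0.38 in Ath29 and B6 mice, and the others above the filter 0.99 and 0.99, -0.18 and 0.45, and 0.50 and 0.50.

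The phagocyte oxidase makes superoxide with a membrane core of Cybb and Cyba. Cybb, the catalytic chain, read 210.1 and 152 in Ath29 Western and chow, and 222 and 124 in B6 Western and chow, a difference of 0.47 and 0.84. Cyba, which also partners other NADPH oxidases outside myeloid cells, read 418 and 339.8 in Ath29 Western and chow, and 332 and 450.2 in B6 Western and chow. It was thus higher on Western diet in Ath29 mice, at 0.30, and lower in B6 mice, at -0.44. Ncf4, a cytosolic subunit, lay below the filter at 10.9 to 20.4.

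Pan-leukocyte and endolysosomal genes had medians of 0.68 in Ath29 and 0.76 in B6 mice. Cd53, a tetraspanin of leukocytes, read 84.0 and 56.1 in Ath29 Western and chow, and 119.8 and 45.3 in B6 Western and chow, a difference of 0.58 and 1.40, the B6 value being 0.95 with its probe sets averaged. Laptm5, a lysosomal protein of blood cells, read 2015 and 1436 in Ath29 Western and chow, and 1992 and 1229 in B6 Western and chow, a difference of 0.49 and 0.70. Of its other probe sets above the filter, 2 were higher on Western diet in both strains, at 0.65 and 1.04 and at 0.63 and 0.65, and 1 gave -0.43 in Ath29 and 0.27 in B6 mice. Pld4, an endolysosomal exonuclease, read 152 and 83.4 in Ath29 Western and chow, and 96.2 and 59.5 in B6 Western and chow, a difference of 0.86 and 0.69.

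Between strains the members differed less. On Western diet 19 of 35 members were higher in Ath29 than in B6 mice, against 50.7% of all genes, with a median of 0.05. On chow 22 were, against 41.1% of all genes, with a median of 0.18, where the median of all genes was -0.08. On both diets 0 members were at least 2-fold higher or lower, while 0.845% of all genes were higher and 2.03% lower on Western diet, and 2.17% were higher and 1.94% lower on chow. Higher in Ath29 mice on both diets were 13 members (37.1%, against 18.5% of all genes), and lower on both 7 (20.0%, against 26.7%). Both Ath29 arrays lay above both B6 arrays in 1 member, Adgre1, where 12.6% of all genes did, and below in 1, Irf8, where 20.4% did. Irf8 passed the filter only through its B6 arrays, so its place here is not independent of the filter. Of the 42 genes, 0 lie on the chromosome that the titles of the Ath29 samples name.

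On Western diet the strain values were largest for Clec4d and Gpnmb, and on chow for Mpeg1 and Cd5l. Clec4d read 117 in Ath29 Western and 58.6 in B6 Western, which at 0.997 on the log2 scale is just under 2-fold, and its difference on chow was 0.06. Gpnmb was 0.69 on Western diet and -0.40 on chow, a strain by diet difference of 1.09. Pld4 was higher in Ath29 mice at 0.66 and 0.49, Clec4n at 0.49 and 0.52, and Cd68 at 0.37 and 0.40 on Western diet and chow. Irf8, with both Ath29 values under the filter value, was -0.56 and -0.21, and Mrc1 -0.28 and -0.20. Mpeg1, Clec7a and Cd5l were higher in Ath29 mice on chow, at 0.74, 0.57 and 0.74, but not on Western diet, at -0.07, -0.21 and -0.43. A strain by diet difference of at least 1 in size was found in 2 members, Gpnmb and Cd5l, or 5.71%, against 11.7% of all genes. That of Cd5l rests on a B6 chow value of 21.6, under the filter value. The second Gpnmb probe set, below the filter, gave diet differences of 0.21 in Ath29 and -0.07 in B6 mice.

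**Figure D4:**
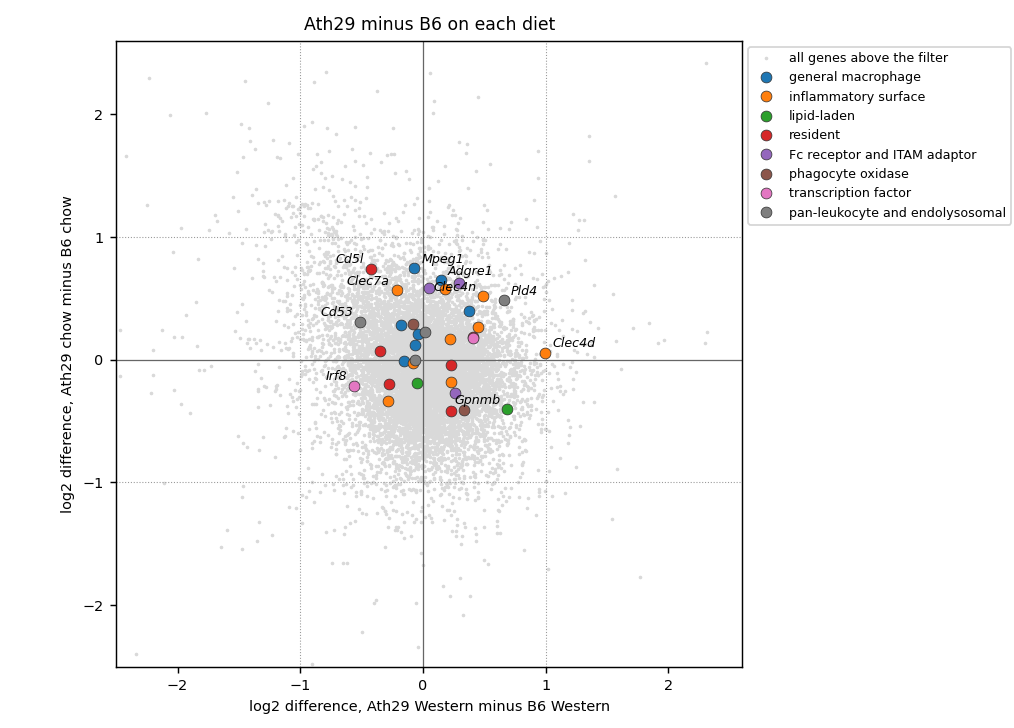
Each point is a gene, with its log2 difference of Ath29 minus B6 on Western diet on the x axis and on chow on the y axis; coloured points are the 35 members by role, grey points all genes above the filter, of which 32 lie outside the axes, and dotted lines mark 2-fold. All 35 members lie inside the 2-fold lines, with Clec4d at the line on Western diet.

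Other genes of the same pathways were read from lists chosen with earlier results of these data known. Of 51 further macrophage genes, 37 lay above the filter, with median diet differences of 0.40 in Ath29 and 0.41 in B6 mice. At least 2-fold higher were 3 and 8 of the 37, against 1.32% and 4.11% of all genes. The 1 gene at 2-fold in both strains was Ccr2, the receptor that brings monocytes into tissue, which read 392 and 183 in Ath29 Western and chow, and 296 and 93.3 in B6 Western and chow. The complement subunits C1qa, C1qb and C1qc, products of tissue macrophages, had differences of 0.75, 0.53 and 0.78 in Ath29 and of 0.56, 1.17 and 0.88 in B6 mice. The resident scavenger receptor Cd163 had 0.44 and 0.86, while Stab1 had 0.32 and -0.38 and Cbr2 0.59 and -0.61. The C1q genes, Cd163, Stab1 and Cbr2 were named after their values were seen.

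Other partners of the members were read by list. Of all genes 56.2% were above 0 in Ath29 and 43.4% in B6 mice. Among 8 ITAM signalling genes above the filter, 4 were above 0 in each strain, near those shares, with medians of -0.07 and 0.00. Syk, the kinase that binds ITAMs, had 0.12 and 0.48, and Fgr, a Src family kinase of myeloid cells, 0.85 and 1.20. Of 9 further myeloid transcription factors, 4 and 7 were above 0, with medians of -0.05 and 0.08, and 1, Cebpa, which fat cells also express, was at least 2-fold higher in B6 mice. The 5 oxidase partners had median diet differences of 0.52 in Ath29 and -0.21 in B6 mice, and the 4 colony stimulating factor and receptor genes above the filter 0.48 and 0.24. Of the oxidase partners, the small GTPase Rac2 was the only one at least 2-fold different between strains on both diets, with 57.6 and 83.9 in Ath29 Western and chow, against 23.9 and 40.4 in B6 Western and chow. Ncf1, an organiser of the oxidase, had a diet difference of 0.67 in Ath29 and -0.08 in B6 mice. Csf1, the growth factor read by Csf1r, had 0.57 and 0.11, and Csf2rb, the shared beta receptor chain, 0.46 and 1.38. Syk, Fgr, Cebpa, Ncf1, Csf1 and Csf2rb were named after their values were seen.

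Markers of other cells were read beside the members. The dendritic cell list, with 6 of 11 genes above the filter, had median diet differences of 0.47 and 1.12 in Ath29 and B6 mice. It was led by the class II genes H2-Aa and H2-Ab1, which macrophages also express. The other genes above the filter were H2-Eb1, Cd74, Zbtb46 and Xcr1, named after their values were seen. Their diet differences were 0.58, 0.36, -0.38 and -0.12 in Ath29 and 1.53, 1.05, 0.54 and 0.16 in B6 mice. Zbtb46 and Xcr1 were thus the lowest of the list in both strains among genes above the filter. Flt3, Cd209a, Ccr7, Siglech and Batf3 lay below the filter. The brightest markers of the lymphoid lists were Zap70, Thy1, Ighm and Mzb1, with diet differences of -0.14, 0.64, 0.02 and -0.23 in Ath29 and of -0.08, 0.11, 0.49 and 0.20 in B6 mice. Those of neutrophils and mast cells were S100a8, Ngp, Cpa3 and Tpsb2, with 0.32, -0.17, -0.43 and -0.24 in Ath29 and 0.11, 0.44, 1.57 and 0.34 in B6 mice. The mast cell tryptase Tpsab1, named after its values were seen, read 97.8 and 96.8 in Ath29 Western and chow, and 19.7 and 18.1 in B6 Western and chow, so it was higher in Ath29 mice on both diets. The T and NK cell list had medians of 0.08 and 0.15 with Cd3d, Cd3e and Cd3g below the filter, the B and plasma cell list -0.23 and 0.20 with Cd79a and Cd79b below it, and the neutrophil list -0.17 and 0.04. The mast cell list had -0.14 and 0.70, and the proliferation list 0.20 and 0.23. Smooth muscle genes had medians of 0.15 and -0.24, endothelial genes 0.18 and -0.09, and fibroblast genes 0.16 and -0.25. Fat and muscle differed between strains: white fat genes had -0.29 and 0.77, brown fat genes -0.55 and 1.87, and heart muscle genes -0.05 and 3.21. Tnnt2 and Pln of heart muscle had -0.12 and 0.61 in Ath29 and 3.21 and 1.72 in B6 mice, and Adipoq, Pnpla2, Ucp1 and Cox8b of fat -0.29, -0.13, -0.25 and -0.28 in Ath29 and 0.77, 0.28, 0.63 and 1.24 in B6 mice. Acta2 and Mylk, Vwf and Egfl7, and Col1a2 and Col3a1, the brightest smooth muscle, endothelial and fibroblast genes, lay between -0.37 and 0.21 in both strains. The whole lists ran wider. Smooth muscle genes lay between 0.01 and 0.74 in Ath29 and between -0.74 and 0.03 in B6 mice. Endothelial genes ran from -0.56 to 0.44 and from -0.37 to 0.96, and fibroblast genes from -0.28 to 0.71 and from -0.96 to 0.24. Alb and Cyp2e1 of the hepatocyte list had -0.19 and -0.67 in Ath29 and 0.69 and 0.93 in B6 mice. The proliferation genes Mki67 and Rrm2 had 0.18 and -0.47 in Ath29 and 0.23 and -0.41 in B6 mice. In Ath29 mice all 35 members were higher on Western diet, as were 10 of 10 smooth muscle, 6 of 9 fibroblast and 5 of 8 endothelial genes. Of white fat genes 0 of 5 were, and of brown fat genes 0 of 8. In B6 mice the fat lists and the members were higher together, while 1 of 10 smooth muscle genes was above 0. The part of any of these tissues in the values of either strain was not tested.

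**Figure D5:**
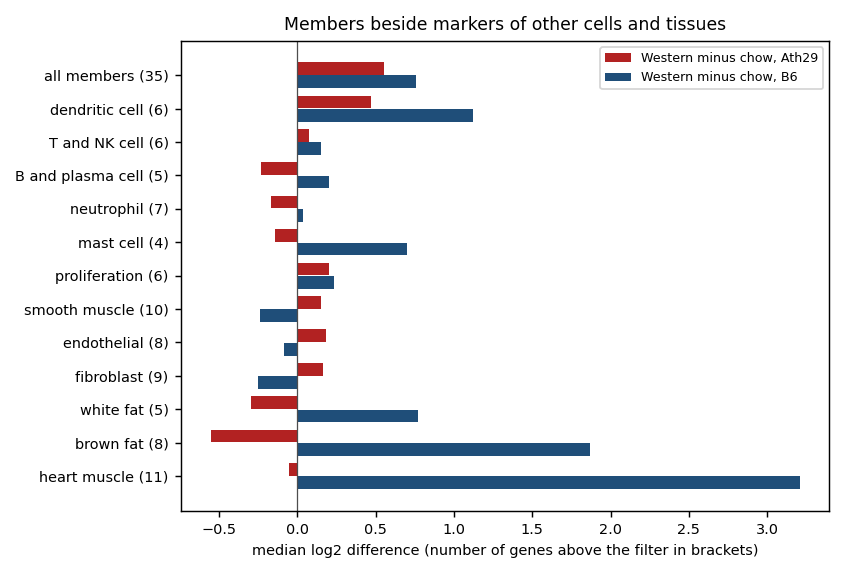
Bars give the median log2 difference of Western minus chow in Ath29 mice (red) and B6 mice (blue) for the members and for marker lists of other cells and tissues, with the number of genes above the filter in brackets. The members are above 0 in both strains at 0.55 and 0.76, while fat lists are below 0 in Ath29 and above 0 in B6 mice and the heart muscle list reaches 3.21 in B6 mice.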

How the data were processed

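Aortic RNA of 4 groups was labelled from 8 ug of total RNA and hybridised to 1 Affymetrix array per group, per the labels' protocols. The authors deposited intensity values on a linear scale, from 0.57 to 13421; the sources used here give neither the software nor any background correction or scaling between arrays, and no probe-level data were used. Array medians ran from 27.9 to 28.8. Probe sets were named from the platform annotation, updated by gene identifier to a reference table of GRCm38.p6: 34945 had 1 symbol (34741 of them matched), 932 several and 9160 none, with 64 controls. Values were shifted to a common median (factors 0.990 to 1.02), floored at the 25th percentile (9.60) and taken to log2 (Python 3.11.15, pandas 2.3.3). Genes were read from the probe set with the highest mean and kept above the median mean (27.5). At least 2-fold was counted as different. The steps were tested on planted changes. Members, role groups and lists were chosen with earlier results of these data known. All members are named; of pathway lists, genes at 2-fold in the same direction in both diet or both strain differences, and of cell type lists the 2 genes with the highest mean log2 value. Further genes are said to be named after their values were seen. Not every pathway gene is given; no protein sequences were used. Alternatives are in the closing section.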

Additional observations from a re-analysis of the deposited data

Results flagged for a closer look

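The members below had differences of opposite sign in the strains or on the diets, each with 1 array per group, and the opposition was not tested. The value is the strain by diet difference on the log2 scale, the diet difference in Ath29 minus that in B6 mice. In 3 members both the diet differences and the strain differences had opposite signs: Timd4 at 0.65, Fcgr2b at 0.53 and Cyba at 0.74. Opposite diet signs were thus found in 3 of 35 members, against 60.9% of all genes. For Fcgr2b the opposite strain signs held only for the probe set used. Its others above the filter were higher in Ath29 mice on Western diet and on chow, at 0.64 and 0.65, 0.03 and 0.66, and 0.32 and 0.31.

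In 12 members Ath29 and B6 arrays changed order between the diets, which with the 3 above makes 15 of 35, against 54.8% of all genes. Higher in Ath29 mice on Western diet and lower on chow were Gpnmb at 1.09, Slc11a1 at 0.41 and Folr2 at 0.27. Lower in Ath29 mice on Western diet and higher on chow were Cd5l at -1.17, Cd53 at -0.82, Mpeg1 at -0.81, Clec7a at -0.78, Lyz2 at -0.47, Lyve1 at -0.43, Cybb at -0.37, Csf1r at -0.25 and Ctss at -0.19.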

How the results depend on the processing

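No sign of a member at 2-fold turned under any alternative, and 211 of 232 summary values and 1141 of 1164 gene values moved by at most 0.2 on the log2 scale, or 1.5 times for a count. These stood without the shift, with quantile normalization, and with a higher floor or none. With a shift to the 75th percentile, 1 member was at least 2-fold higher in Ath29 than in B6 mice on Western diet, where 0 were in the main analysis. Without the filter, inflammatory medians for diet were 0.49 in Ath29 and 0.31 in B6 mice. The lipid-laden median was then 1.01 for diet in Ath29 mice and -0.0477 between strains on Western diet. On each diet 1 member was at least 2-fold lower in Ath29 than in B6 mice. With the filter at the 75th percentile, 5 members were at least 2-fold higher on Western diet in B6 mice, of 18 left, and the resident median between strains on Western diet was -0.31. Averaging probe sets gave inflammatory medians for diet of 0.80 in Ath29 and 0.52 in B6 mice, and lipid-laden medians of 1.14 and 0.73, with -0.0944 between strains on chow. Without probe sets that bind several transcripts, 32 members were left, Clec4n, Clec4d and Lyz1 having no other above the filter. The inflammatory median in Ath29 mice was then 0.49. At 1.5-fold, 16 members in Ath29 and 21 in B6 mice were higher on Western diet, against 6.03% and 9.95% of all genes, and 3 on Western diet and 5 on chow were higher in Ath29 mice, against 5.63% and 7.28%. At 3-fold, 2 in Ath29 and 3 in B6 mice were higher on Western diet, against 0.265% and 1.27%. The smaller counts at a stricter fold or filter follow from its construction; the cause of the other moves was not tested. Ly86 and Lgals3 fell under 2-fold in Ath29 mice with quantile normalization, at 0.97 and 0.98, and with the 75th percentile, at 0.98 and 0.96; Clec4n, Gpnmb and Cd53 did so with averaged probe sets, as given above. Leaving out Cd300lb was chosen after seeing the data. No paired analysis was possible because each group has 1 array, and for the same reason no array could be left out. Signal near background limits Cd300lb, Itgam, Timd4, Cd5l and Irf8, which had arrays under the filter value.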
